A study of Mus musculus with 18 samples.

Results

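Livers of old male C57BL6 mice that had eaten a high-fat diet (HFD) were compared with livers of old male mice on a normal diet (ND). The comparison holds 9 of the 18 libraries of the study, 4 from old HFD and 5 from old ND, chosen by the age and diet in the labels and by no measured value. The other 9 libraries come from young mice (5 HFD, 4 ND) and serve to ask whether a diet difference of old liver was also seen in young liver. They were also fitted in the same model, so they share in the filter, the scaling and the estimate of spread behind the p-values of old liver. Each library is poly(A) RNA of whole liver, so the cell types of the organ are mixed. Both diets were fed for 9 weeks. The HFD was 58Y1, with 60% of calories from fat. The sources disagree on the ND, which is given once as a Teklad Global diet with 18% protein and once as 58Y2 with 10% of calories from fat, so whether both diets were purified diets cannot be told. The labels call the animals old, and the written accounts give 22 and 25 months. No gene was altered and no drug was given in any of these groups. The labels number the libraries as replicates without saying that each comes from its own mouse, so the p-values below measure the spread between these libraries.

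The liver stores, makes and exports fuel. Fed a diet rich in carbohydrate, hepatocytes turn surplus sugar into fatty acids through enzymes that the transcription factor SREBP-1c and insulin switch on, and dietary fat is known to lower this synthesis. Hepatocytes near the portal vein carry most of the urea cycle and glucose output, and those around the central vein carry glutamine synthesis and much of drug metabolism. Resident macrophages, called Kupffer cells, recruited macrophages, stellate cells and endothelium share the organ, and all of them respond to type I interferon, which acts through STAT2 and IRF9 on promoter elements called ISREs.

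Total counts were 25789898 to 29093946 per library in old HFD and 20373560 to 26406105 in old ND. The diets were counted in separate tables with different commands, and the command for HFD libraries did not require reads to lie on the strand of the gene. Diet and counting therefore cannot be told apart in these 9 libraries. A gene is called counted alike below when both tables used the same transcript, no exon of it overlaps an exon on the opposite strand and under 5% of its 31-base words occur at another locus. The looser counting can only add reads to a gene in the HFD libraries, but reads added to some genes lower the scaled level of the rest.

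Of 14275 genes tested, 4577 (32.1%) were called at an adjusted p under 0.05 by the edgeR quasi-likelihood test. Of these, 2753 (19.3%) were higher and 1824 (12.8%) lower in old HFD. Among the 7487 tested genes counted alike, 1853 (24.7%) were called, 773 (10.3%) higher and 1080 (14.4%) lower, and the median log2 fold change was -0.02. At least a 2-fold change was seen in 253 of the higher and 136 of the lower genes. The balance of directions moved with the scaling. Higher genes made up 41.7% of the calls among genes counted alike, 55.7% when only these genes were scaled and tested (841 or 11.2% higher, 669 or 8.95% lower) and 26.2% with upper-quartile scaling (578 higher, 1630 lower). CPM, a count scaled by the library's total times its TMM factor, did not overlap between old HFD and old ND for 1049 (14.0%) of the genes counted alike. The counts of gene lists below are read against these shares, and unless stated otherwise they cover genes counted alike.

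**Figure D1:**
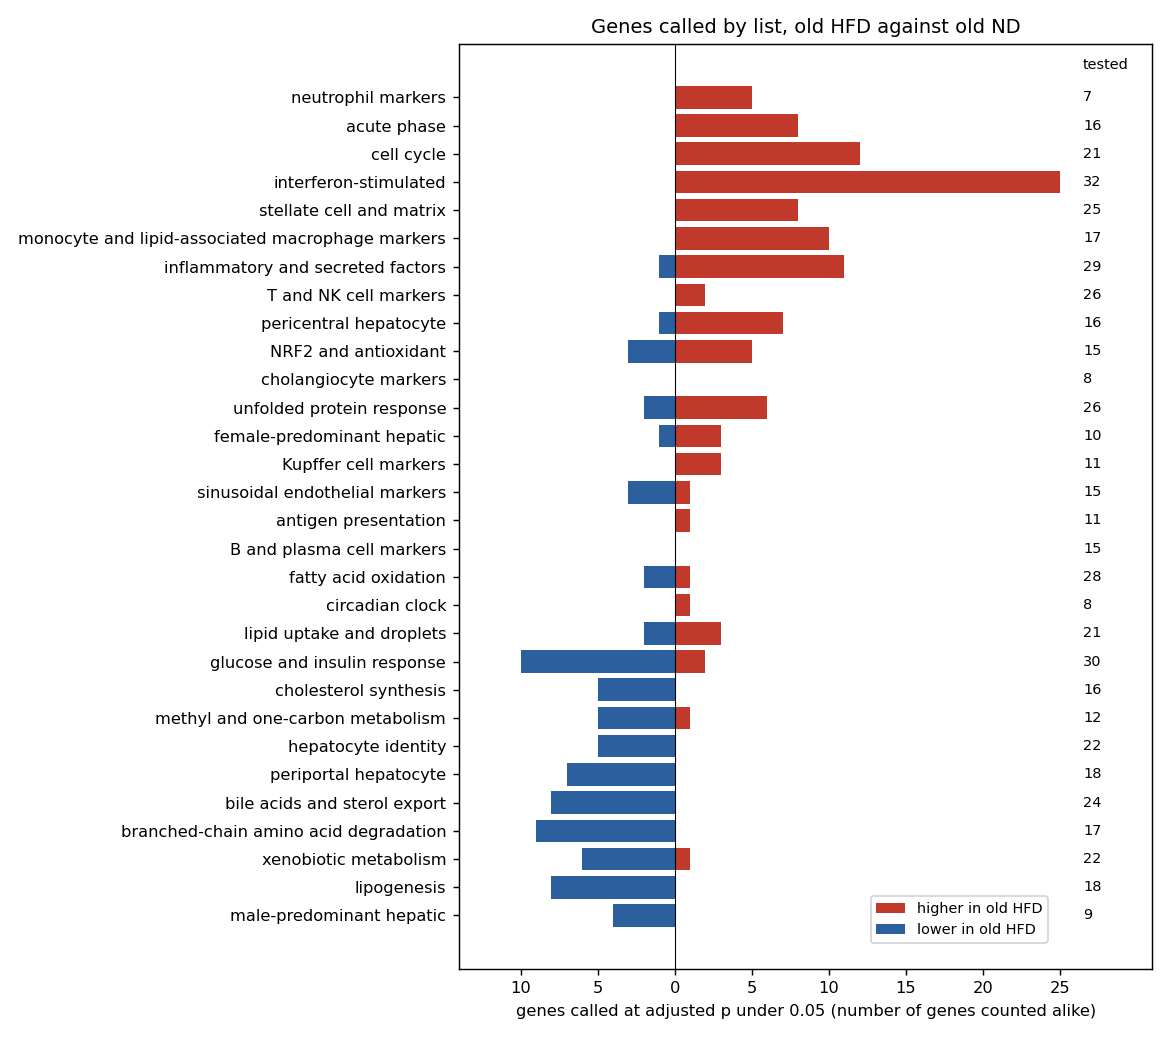
Number of genes called in each of 30 gene lists, among genes counted alike. Bars to the right count genes higher in old HFD and bars to the left genes lower in old HFD, and the numbers at the right edge give the genes tested. Lists are ordered by median log2 fold change. The longest bar is that of the interferon-stimulated genes, with 25 of 32 higher, and the lipogenesis and branched-chain amino acid lists hold lower calls only (8 of 18 and 9 of 17).

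One library stood apart. The distance was taken over the 6602 genes counted alike with a mean log2 CPM of at least 0. In old HFD replicate 4, 91 of them lay more than 4-fold from the median of the other libraries of its group, against 5 to 22 genes in the other 8 libraries. Without it, 642 (8.50%) of the genes counted alike were higher and 781 (10.3%) lower. Old ND replicate 5 had 22 such genes and the largest median distance from its group (0.26 on the log2 scale).

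A fit to the 9 old libraries alone estimates the spread from fewer samples and without the young libraries, whose spread may differ. What lowered the number of calls from 1853 in this fit was not tested. It called 836 genes counted alike. It gave 18 interferon-stimulated genes as higher, 4 lipogenic, 4 periportal, 6 glucose and 1 xenobiotic gene as lower, and 5 cell cycle, 3 acute phase and 3 inflammatory genes as higher.

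Hepatocyte transcripts dominated every library. The summed level of Alb, Apoa1, Ttr, Serpina1a and Tdo2 was 54508 to 67720.3 CPM in old HFD and 77695 to 110169 CPM in old ND, without overlap. Alb made up most of this sum. Alb and Ttr fell, Apoa1 and Tdo2 did not pass, and Serpina1a, which has near-identical paralogs and is not counted alike, went the other way with a log2 fold change of 1.44. Markers of fat tissue (Adipoq, Plin1 and Lep) had at most 2 counts in any of the 9 libraries. Of the pancreas markers Cpa1, Pnlip and Cela1, only 1 passed the filter, and their sum overlapped between diets (6.70 to 20.5 and 10.1 to 23.6 CPM). In bulk RNA, fewer cells of a type and less RNA per cell cannot be told apart, for these and all further genes.

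Interferon-stimulated genes were higher in old HFD. Of 32 such genes counted alike, 25 rose, 0 fell and 7 did not pass, and all 32 fold changes were above 0. Their median log2 fold change was 0.72, and CPM did not overlap between the diets for 20 of them. Over all 63 tested members of the list, including those not counted alike, 49 rose and 0 fell. The number that rose among genes counted alike was 21 to 25 when any single library was left out.

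The promoters of 3 of these genes are shown because they hold the core letters of an ISRE, which are GAAA, any 2 bases and GAAA again, on either strand. Oas3 makes an enzyme that senses double-stranded RNA, Rsad2 encodes viperin, which blocks the replication of viruses, and Irgm1 encodes a GTPase of antimicrobial defence. Bases are from RefSeq promoters of GRCm38.p6, read 5′ to 3′ on the strand of the gene, with matches in capitals. The matches end 66 (Oas3), 111 (Rsad2) and 15 (Irgm1) bases before the start that RefSeq's promoter entry uses, which for Irgm1 lies upstream of the start of the transcript counted here.
Oas3, chr5:120777685-120777774, minus strand: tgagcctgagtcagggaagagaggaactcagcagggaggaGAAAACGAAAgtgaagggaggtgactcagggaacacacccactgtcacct
Rsad2, chr12:26456523-26456612, minus strand: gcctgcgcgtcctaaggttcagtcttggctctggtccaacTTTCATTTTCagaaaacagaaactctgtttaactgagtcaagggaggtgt
Irgm1, chr11:48871421-48871484, minus strand: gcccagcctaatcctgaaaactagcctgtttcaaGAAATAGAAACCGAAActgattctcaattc
In windows of 250 bases before to 50 after the start, the letters occurred in 13 of 27 matched promoters of the interferon list (48.1%) and in 172 of 5714 promoters of all tested genes counted alike (3.01%). Among the genes of the list that rose, 7 of 20 matched promoters (35.0%) held them. The other interferon element searched, GAS (TTC, any 3 bases, GAA), was in 4 of the 27 (14.8%) and in 7.0% of all. A match is a description of letters and not a binding site.

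Oas3 measured 9.21, 9.41, 9.43 and 10.8 CPM in the 4 old HFD libraries and 2.88, 3.40, 3.42, 3.28 and 1.39 CPM in the 5 old ND libraries. The lowest HFD library thus lay above the highest ND library, and the log2 fold change was 1.75 ± 0.25 (SE, edgeR adjusted p = 2.41e-05). Rsad2 measured 64.6, 63.9, 38.7 and 27.6 CPM in old HFD and 14.9, 31.2, 19.2, 14.5 and 13.1 CPM in old ND, with 1 HFD library inside the ND range. It rose by 1.39 ± 0.31 (edgeR adjusted p = 0.00239). Irgm1 rose by 0.68 ± 0.18 (edgeR adjusted p = 0.00689), a call lost only in the fit to the 9 old libraries alone (edgeR adjusted p = 0.0508).

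Among list members counted alike, the 3 with the highest fold changes were Ifi44, Oasl2 and Zbp1. Ifi44 is an interferon-induced protein of antiviral defence and Oasl2 a relative of the OAS enzymes. Zbp1 is a sensor of Z-form nucleic acid that can trigger cell death. Ifi44 measured 48.8, 61.7, 41.9 and 39.7 CPM in old HFD and 8.06, 11.8, 18.7, 9.08 and 3.10 CPM in old ND, a log2 fold change of 2.23 ± 0.34 (edgeR adjusted p = 6.53e-05). Oasl2 measured 38.8, 56.7, 56.9 and 45.6 CPM against 9.50, 13.3, 19.7, 12.0 and 4.36 CPM (2.06 ± 0.27, edgeR adjusted p = 1.37e-05). For both, every HFD library exceeded every ND library, and old ND replicate 5 was the lowest of all 9. In mm10, Ifi44 lies at chr3:151730923-151749959 and Oasl2 at chr5:114896934-114912245, and neither has an opposite-strand gene within 5000 bp. Zbp1 rose by 1.91 ± 0.29 (edgeR adjusted p = 6.65e-05). The signalling components had smaller fold changes. Stat2 rose by 0.48 ± 0.10 (edgeR adjusted p = 0.000704), Irf9 by 0.36 and Ddx58 and Ifih1, the cytosolic RNA sensors, by 0.65 and 0.57. Irf7, the factor that amplifies the response, overlaps an opposite-strand exon and is not counted alike. It measured 212, 228, 137 and 199 CPM in old HFD and 75.2, 75.2, 101, 57.0 and 41.4 CPM in old ND.

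**Figure D2:**
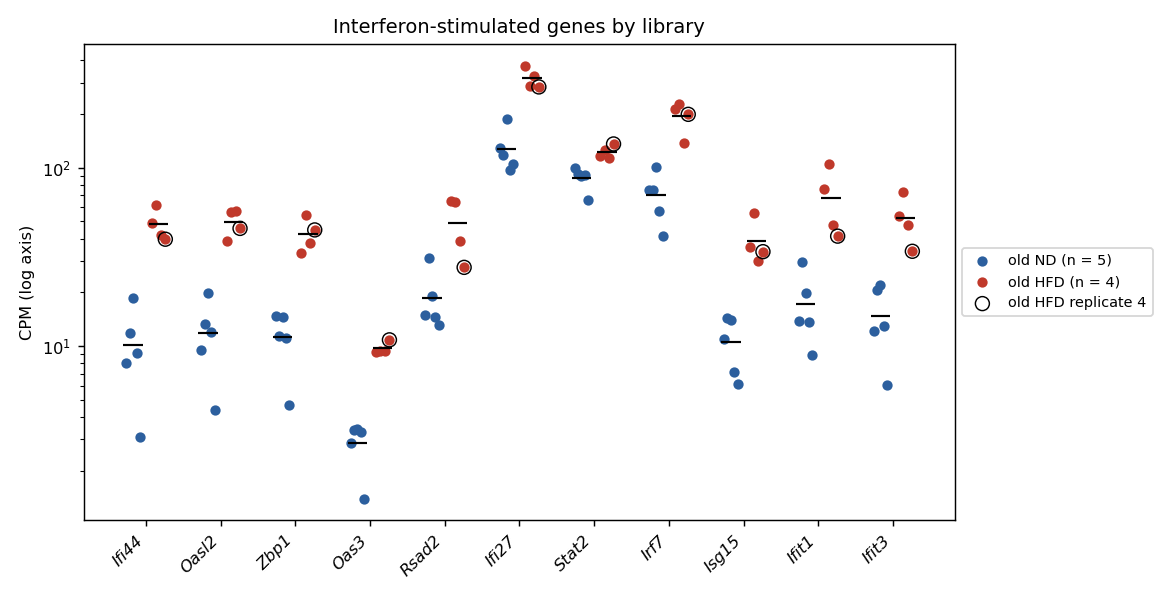
CPM on a log axis for 11 interferon-stimulated genes in the 5 old ND and 4 old HFD libraries. Points are libraries, black lines are group means and the ringed point is old HFD replicate 4. The HFD libraries lie above all ND libraries for each gene shown except Rsad2, and Irf7, Isg15, Ifit1 and Ifit3 are not counted alike in the 2 tables.

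In young liver the same 32 genes had a median log2 fold change of 0.15 between the diets. The interaction, which tests whether the diet difference of old liver differs from that of young liver, was called for 1 of them, Ifi27, a mitochondrial interferon-induced protein. It measured 373, 286, 327 and 283 CPM in old HFD and 129, 118, 188, 97.4 and 105 CPM in old ND, but 55.3 to 83.0 and 56.0 to 75.6 CPM in young HFD and young ND. For the other members a difference between the ages was not shown, and 21 of the 32 had an unadjusted interaction p under 0.05, as did 11.7% of all genes counted alike.

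The genes of fatty acid synthesis called among those counted alike were lower in old HFD. Of 18 lipogenic genes counted alike, 8 fell and 0 rose, with a median log2 fold change of -0.36, and of all 34 tested members 17 fell and 2 rose. When genes counted alike were scaled among themselves, 5 of the 18 fell. Fasn, fatty acid synthase, measured 696, 612, 1104 and 491 CPM in old HFD and 3166, 1599, 2207, 3104 and 627 CPM in old ND. It fell by 1.56 ± 0.42 on the log2 scale (edgeR adjusted p = 0.01). Thrsp, a nuclear protein that goes with lipogenic diets, measured 87.8, 60.7, 136 and 59.9 CPM against 463, 212, 285, 443 and 135 CPM (-1.84 ± 0.43, edgeR adjusted p = 0.00366). In both genes 4 of the 5 ND libraries lay above every HFD library, and old ND replicate 5 lay among the HFD libraries. Fasn lies at chr11:120805958-120824547 and Thrsp at chr7:97412933-97417550 in mm10. In young liver their log2 fold changes were -0.06 and -0.29, and neither was called there.

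Pnpla3, a lipid droplet protein under the control of SREBP-1c, measured 2.84, 2.29, 7.63 and 3.29 CPM in old HFD and 36.3, 5.24, 24.8, 25.7 and 2.47 CPM in old ND. Its log2 fold change was -2.22 ± 0.76 (edgeR adjusted p = 0.0359), and it kept its call in only 7 of 19 alternatives. Acacb, the acetyl-CoA carboxylase of mitochondria, had a log2 fold change of -0.98 ± 0.34 (edgeR adjusted p = 0.0371) and kept its call in 6 of 19. Slc25a1, which exports citrate for synthesis, Tkt of the pentose phosphate pathway, and Dgat2 and Dgat1, which make triglyceride, fell by 0.45, 0.41, 0.34 and 0.24. When old HFD replicate 4 was left out, 5 genes of the list fell and 1 rose. The one that rose was the desaturase Fads2, which measured 434, 506, 555 and 189 CPM in old HFD and 192 to 383 CPM in old ND.

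Among members not counted alike, Scd1, the desaturase that makes oleate, measured 3094 to 7144 CPM in old HFD and 4660.2 to 26478 CPM in old ND (-1.54 ± 0.41, edgeR adjusted p = 0.00783). It shares 8.3% of its 31-base words with other loci. Srebf1, which encodes SREBP-1c, had a log2 fold change of -0.54 ± 0.18 (edgeR adjusted p = 0.0255) and lost its call without old HFD replicate 1, old HFD replicate 4 or old ND replicate 1. Acaca, the cytosolic carboxylase, went the other way (0.59 ± 0.22, edgeR adjusted p = 0.0488) and kept its call in 3 of 17 alternatives.

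The promoters of Fasn and Thrsp are shown because lipogenic promoters are known to hold CCAAT boxes, the letters bound by NF-Y. Capitals mark CCAAT on either strand.
Fasn, chr11:120824562-120824646, minus strand: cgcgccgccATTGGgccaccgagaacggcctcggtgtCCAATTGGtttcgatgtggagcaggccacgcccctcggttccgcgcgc
Thrsp, chr7:97417558-97417642, minus strand: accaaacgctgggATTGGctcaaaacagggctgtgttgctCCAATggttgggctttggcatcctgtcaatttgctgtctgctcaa
These letters are common. They occurred in 5 of 6 matched promoters of the lipogenic genes that fell (83.3%), in 8 of 14 of the whole list (57.1%) and in 36.9% of all tested promoters counted alike. The strands of these genes are as given, so ATTGG is CCAAT read on the other strand. One form of the sterol response element, to which SREBP-1c binds (TCAC, any base, CCAC), was in 0 of the 14 and 0 of the 6, and in 1.09% of all.

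**Figure D3:**
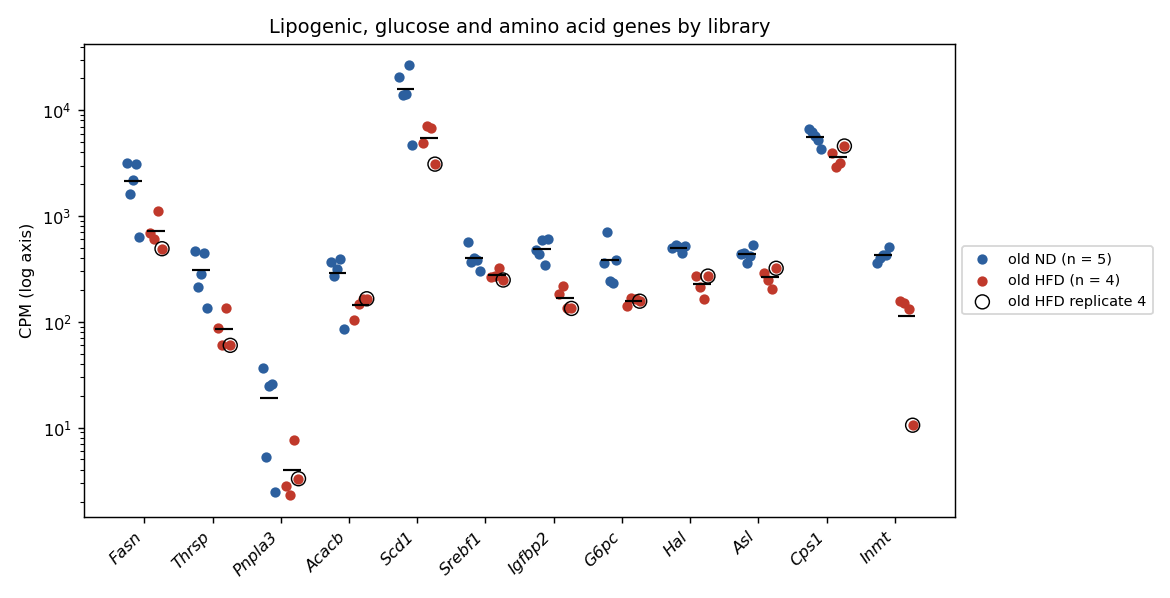
CPM on a log axis for 12 genes of lipid, glucose and amino acid metabolism in the 5 old ND and 4 old HFD libraries. Points are libraries, black lines are group means and the ringed point is old HFD replicate 4. Old ND replicate 5 lies within the HFD range or below it for genes that include Fasn, Thrsp, Pnpla3, Acacb, Scd1 and Cps1. Old ND replicate 2 lies within the HFD range for Pnpla3, and Igfbp2, G6pc, Hal, Asl and Inmt show no overlap. Scd1 and Srebf1 are not counted alike.

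Fatty acid oxidation held few calls. Of 28 genes, 1 rose and 2 fell, with a median of -0.02. Cpt1a, which gates the entry of fatty acids into mitochondria, measured 645, 784, 575 and 468 CPM in old HFD and 384, 467, 365, 483 and 329 CPM in old ND, and rose by 0.61 ± 0.13 (edgeR adjusted p = 0.00111). Abcd3, a peroxisomal transporter, fell by 0.54, and Acaa2, the mitochondrial thiolase, fell by 0.33 and lost its call in 12 of 19 alternatives. Leaving out old HFD replicate 4 gave 5 that rose and 1 that fell, and a median of 0.15. Among 21 genes of lipid uptake and droplets 3 rose and 2 fell. Lpl, lipoprotein lipase, rose by 0.95 ± 0.24 (edgeR adjusted p = 0.00595), while Lipc, hepatic lipase, fell by 0.58. The droplet proteins Cidea and Cidec were not called. Cidea measured 12.5, 18.9, 19.3 and 0.0843 CPM in old HFD and 0.589 to 31.3 CPM in old ND, so single libraries span almost the whole range of both groups.

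The cholesterol synthesis and bile acid genes called among those counted alike were lower. Of 16 cholesterol genes 5 fell and 0 rose (median -0.16), among them Pmvk of the mevalonate pathway (-1.08 ± 0.24, edgeR adjusted p = 0.00245), the sterol carrier Stard4 (-0.71) and the desaturase Sc5d (-0.69). Without old ND replicate 3, 2 cholesterol genes rose, and over all 27 tested members 6 fell and 2 rose. Of 24 genes of bile acids and sterol export 8 fell and 0 rose, with a median of -0.25. In this list 1 gene rose without old HFD replicate 3 or old ND replicate 5, by voom and when genes counted alike were scaled among themselves, and over all 34 tested members 13 fell and 2 rose.

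Slc10a1 encodes NTCP, which takes bile acids up from blood. It measured 438, 474, 302 and 340.4 CPM in old HFD and 749.9, 762, 812, 783 and 733 CPM in old ND, and fell by 0.98 ± 0.11 (edgeR adjusted p = 1.2e-06). The ND libraries were close together, and the highest HFD library lay well under the lowest of them. Cyp39a1 (-0.96) and Cyp27a1 (-0.56), hydroxylases of the pathway, and Klb, the co-receptor for FGF21 and FGF15 (-0.61), fell too. Cyp7a1, the rate-limiting enzyme of bile acid synthesis, measured 136, 177, 107 and 107 CPM against 189, 148, 190.5, 129 and 38.2 CPM and was not called (-0.08 ± 0.53, edgeR adjusted p = 0.928).

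Genes of glucose handling fell in 10 of 30 cases and rose in 2 (median -0.14, and -0.27 without old HFD replicate 4). The number that rose was 1 to 2 with any single old library left out. When genes counted alike were scaled among themselves, 8 fell. Igfbp2, a secreted binding protein of insulin-like growth factors, measured 182, 219.7, 134 and 134 CPM in old HFD and 481, 437, 592, 341 and 606 CPM in old ND, and fell by 1.55 ± 0.20 (edgeR adjusted p = 6.18e-06). G6pc, the phosphatase that releases glucose, measured 142, 167, 165 and 157 CPM against 361, 699, 241, 232 and 383 CPM (-1.28 ± 0.33, edgeR adjusted p = 0.00754). For G6pc the HFD libraries lay close together and the ND libraries spread widely, without overlap. Other members that fell were Ppp1r3c (-0.95) and Ppp1r3b (-0.58), which target a phosphatase to glycogen, the glucose transporter Slc2a2 (-0.69), Gys2, glycogen synthase (-0.49), Pygl, glycogen phosphorylase (-0.59), and the insulin receptor Insr (-0.26). Inhbe, which encodes a secreted activin subunit, rose by 1.10 ± 0.20 (edgeR adjusted p = 0.000384). Pck1, the enzyme that starts glucose synthesis from oxaloacetate, measured 1615 to 3053 CPM against 959 to 3474 CPM and was not called.

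Along the lobule, the portal genes that were called were lower and most of the central genes called were higher. Of 18 periportal genes 7 fell and 0 rose (median -0.24), and of 16 pericentral genes 7 rose and 1 fell (median 0.42). Hal, which starts histidine breakdown, measured 268, 213, 164 and 270.5 CPM in old HFD and 495, 529, 507, 443 and 519 CPM in old ND (-1.12 ± 0.14, edgeR adjusted p = 2.08e-06). The urea cycle genes Asl (-0.72), Cps1 (-0.62) and Otc (-0.32) fell as well. Asl did not overlap between the diets (205 to 321 against 359 to 527 CPM), Cps1 and Otc did, and Otc lost its call in 11 of 20 alternatives. With old HFD replicate 3 left out, 4 periportal genes fell, and 5 fell when genes counted alike were scaled among themselves.

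Rhbg, an ammonium transporter of hepatocytes around the central vein, measured 19.6, 11.8, 21.1 and 10.4 CPM in old HFD and 6.09, 6.16, 4.12, 4.21 and 2.65 CPM in old ND (1.77 ± 0.24, edgeR adjusted p = 1.35e-05). Slc13a3, a carrier of dicarboxylates, measured 61.5, 44.7, 50.8 and 166 CPM against 19.1, 17.9, 19.6, 18.9 and 12.7 CPM (2.19 ± 0.34, edgeR adjusted p = 8.98e-05). Both showed no overlap. Slc1a4, a neutral amino acid transporter, rose by 2.48, and by 1.47 without old HFD replicate 4. Lgr5 (0.59), a receptor of Wnt signalling, and the junction protein Cldn2 (0.56) also rose. Cyp27a1 was the member that fell.

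Branched-chain amino acid breakdown was lower in 9 of 17 genes and higher in 0 (median -0.26). Acad8, of valine breakdown, measured 57.8, 58.9, 56.9 and 42.1 CPM in old HFD and 70.2, 81.5, 73.7, 77.5 and 91.0 CPM in old ND (-0.55 ± 0.10, edgeR adjusted p = 0.000272). Acadsb (-0.47), Mcee (-0.40), Dbt (-0.38), Ivd (-0.30) and Mccc2 (-0.28) fell by less. With old HFD replicate 4 left out, 5 of the 17 fell and 2 rose (median -0.15), and without old ND replicate 5, 2 rose. Scaling genes counted alike among themselves gave 6 that fell and 2 that rose, and DESeq2 gave 10 and 2. In methyl and one-carbon metabolism 5 of 12 genes fell and 1 rose. Gnmt, the glycine N-methyltransferase that uses up S-adenosylmethionine, fell by 0.73 ± 0.13 (edgeR adjusted p = 0.000171) and Cth, which makes cysteine, by 0.95 ± 0.17 (edgeR adjusted p = 0.000291).

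Hepatocyte identity genes were lower in 5 of 22 and higher in 0. Alb, serum albumin, measured 50164, 52803, 42823 and 48822 CPM in old HFD and 63774, 72843, 85903, 76188 and 90531 CPM in old ND (-0.68 ± 0.14, edgeR adjusted p = 0.00111). Ttr, which carries thyroid hormone and retinol, fell by 0.70 and Apoa2 by 0.54. Hnf4a, the nuclear receptor that maintains hepatocyte identity, was not called (-0.06 ± 0.12). The count was 9 without old HFD replicate 4 and 3 without old HFD replicate 3. As higher, 1 identity gene was called without old HFD replicate 2 or 3, and over all 30 tested members 8 fell and 1 rose. Xenobiotic metabolism held 6 lower and 1 higher of 22, against 24 lower and 3 higher of 56 over all tested members. The glutathione transferase Gstt2 fell by 1.08 and the glucuronosyltransferase Ugt2b1 by 0.97. The number of the 22 that fell was 3 to 12 with 1 library left out, lowest without old ND replicate 5 and highest without old HFD replicate 1. Voom called 3 as lower, and 3 fell when genes counted alike were scaled among themselves.

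Genes with a known sex bias in mouse liver were also called. Of 9 male-predominant genes 4 fell and 0 rose, among them the peroxisomal hydrolase Nudt7 (-0.90 ± 0.18, edgeR adjusted p = 0.000987) and Cspg5 (-1.93). Of 10 female-predominant genes 3 rose and 1 fell. Cyp17a1, a steroid hydroxylase, measured 32.9, 20.9, 23.1 and 83.5 CPM against 9.35, 4.19, 2.80, 25.3 and 5.08 CPM (2.10 ± 0.55, edgeR adjusted p = 0.00853). With old HFD replicate 4 left out, 1 female-predominant gene rose. In the fit to the 9 old libraries 1 male-predominant gene fell and 0 female-predominant genes rose by edgeR, and with the replicate block 2 male-predominant genes fell. Median log2 fold changes were -0.46 in old and -0.93 in young liver for the male-predominant genes, and 0.14 and 0.79 for the female-predominant genes.

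Some macrophage genes were higher in old HFD. Of 17 markers of monocytes and lipid-associated macrophages 10 rose and 0 fell, and all 17 fold changes were above 0 (median 0.63). In young liver their median was 0.57. Trem2, a lipid receptor of macrophages in fatty tissue, measured 4.77, 2.93, 10.5 and 4.80 CPM in old HFD and 1.30, 0.920, 0.993, 1.39 and 1.44 CPM in old ND (2.26 ± 0.32, edgeR adjusted p = 1.97e-05). The chemokines Ccl4 and Ccl3 rose by 2.20 and 1.67, the integrin Itgam by 1.38 (0.79 without old HFD replicate 4), the glucan receptor Clec7a by 1.07, and the lysosomal protein Cd68 by 0.60. Old HFD replicate 3 was the highest library for Trem2 and Clec7a, and without it 6 genes of the list rose. Voom called 6 with all libraries kept. The Kupffer cell markers Clec4f (0.42), Vsig4 (0.49) and Cd5l (0.53) rose among 11. That count was 0 without old HFD replicate 4 or old ND replicate 2 and 1 without old HFD replicate 3 or old ND replicate 1, and voom called 0. As lower, 2 Kupffer genes were called without old HFD replicate 1, 1 without old ND replicate 2 and 1 with upper-quartile scaling. Summed Kupffer markers were 554 to 807 CPM in old HFD and 345 to 526 CPM in old ND, and their part in the macrophage results was not tested.

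Few lymphocyte genes passed the test. Of 26 T and NK cell genes 2 rose, the cytotoxic granule genes Gzmb (1.84 ± 0.51, edgeR adjusted p = 0.00974) and Prf1 (1.14), although 23 of the 26 fold changes were above 0 (median 0.48). The count was 0 without old HFD replicate 3, 8 without old ND replicate 3, and 4, 5 and 6 without old HFD replicates 1, 2 and 4. Cd8a measured 3.47, 1.98, 7.57 and 1.52 CPM against 1.15, 2.85, 2.61, 0.757 and 0.809 CPM and was not called (1.16 ± 0.46, edgeR adjusted p = 0.0626). By edgeR 0 of 15 B and plasma cell genes were called and 0 of 8 cholangiocyte genes, with 1 gene of each list at an unadjusted p under 0.05 and 0 called by DESeq2. Antigen presentation had 1 of 11 genes higher, the co-stimulator Cd86 (0.55), and Cd74, the invariant chain of MHC class II, had a log2 fold change of 0.02. Without old HFD replicate 4 or old ND replicate 3, 2 antigen presentation genes rose. The cholangiocyte count was 1 without old HFD replicate 2 or 4, and the B and plasma cell count was 1 without old HFD replicate 3 or old ND replicate 3.

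Matrix genes were higher in 8 of 25 and lower in 0 (median 0.67, and 0.62 in young liver). Col5a2, a fibrillar collagen, measured 21.8, 6.36, 19.9 and 55.3 CPM in old HFD and 8.11, 4.42, 7.17, 2.86 and 2.65 CPM in old ND (2.35 ± 0.45, edgeR adjusted p = 0.000769). Col1a2 rose by 1.14, but by 0.27 and without a call (edgeR adjusted p = 0.444) when old HFD replicate 3 was left out, and kept its call in 9 of 20 alternatives. Col1a1 did not pass (1.36 ± 0.52, edgeR adjusted p = 0.0582), with 82.4 CPM in old HFD replicate 3 and 8.81 to 18.9 CPM in the other HFD libraries. The count was 14 without old HFD replicate 1, 3 without old HFD replicate 3, old ND replicate 2 or old ND replicate 4, and 4 without old ND replicate 1 or 5. Voom called 2 matrix genes. Among 15 sinusoidal endothelial genes 1 rose and 3 fell, and 3 rose and 4 fell without old HFD replicate 4. The receptor Kdr measured 53.1 to 80.7 CPM against 89.5 to 100.1 CPM and fell by 0.43, while Vwf rose by 0.72 without old HFD replicate 4 and more with it.

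Cell cycle genes were higher in 12 of 21 and lower in 0 (median 0.90), at low levels. Cenpf, a kinetochore protein, was at most 1.10 CPM in every old ND library and reached 4.18 CPM in old HFD replicate 3, a log2 fold change of 1.63 ± 0.36 (edgeR adjusted p = 0.00189). Mki67 (1.23), Top2a (1.05) and Cdk1 (0.96), which mark dividing cells, rose too. Cell division itself was not measured, and the cell type that held these transcripts cannot be read from whole liver. The count was 5 without old HFD replicate 3, 6 without old ND replicate 2 and 7 without old HFD replicate 4, and voom called 2. Cdkn1a, which encodes the cell cycle inhibitor p21 and is not counted alike, rose by 1.71 ± 0.31 (edgeR adjusted p = 0.000378).

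In the unfolded protein response, which adjusts folding capacity in the endoplasmic reticulum, 6 of 26 genes rose and 2 fell (median 0.16). Hyou1, a chaperone, measured 286, 243, 194 and 287 CPM in old HFD and 205, 155, 135, 171 and 145 CPM in old ND (0.64 ± 0.13, edgeR adjusted p = 0.000831). One HFD library lay inside the ND range. Creld2 rose by 0.88 without overlap, Pdia4 by 0.38 and Dnajb11 by 0.35. The sensor Ern1 fell by 0.46 and the factor Atf4 by 0.28, and Atf3, a stress-induced factor, rose by 0.94. The count of genes that fell was 0 without old HFD replicate 3 and 1 without old HFD replicate 2, old ND replicate 2 or old ND replicate 5. Hspa5, the chaperone BiP, was read from different transcripts in the 2 tables and rose by 0.57.

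Several secreted and stress genes rested on old HFD replicate 4. Of 16 acute phase genes 8 rose and 0 fell (median 1.00). The count was 3 without that library (median 0.24), 15 without old HFD replicate 3 and 5 without old ND replicate 2 or 4. Of 29 inflammatory and secreted factors 11 rose and 1 fell (median 0.54), and 7 rose without old HFD replicate 4, 4 without old HFD replicate 3 and 6 without old ND replicate 2. Of 7 neutrophil genes 5 rose and 0 fell, with 0 called by edgeR without old HFD replicate 4 and 3 without old ND replicate 4. With all libraries kept, DESeq2 and voom each called 0 of these 7, where edgeR had 5 at an unadjusted p under 0.05. Voom called 4 acute phase genes and 3 inflammatory genes as higher. Lcn2, an iron-binding protein of inflammation, measured 47.1, 208, 77.9 and 2025 CPM in old HFD and 20.1, 10.6, 23.2, 6.10 and 10.5 CPM in old ND. It rose by 5.38 ± 1.08 (edgeR adjusted p = 0.00119), and by 2.98 without replicate 4, still with no overlap. Steap4, a metal reductase, measured 292, 414, 295 and 1525 CPM against 172 to 211 CPM and rose by 1.77, or by 0.86 without replicate 4.

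The neutrophil granule gene Ngp measured 0.367, 0.0381, 0.336 and 72.7 CPM in old HFD and 0.135 to 0.463 CPM in old ND. Leaving out replicate 4 turned its log2 fold change from 5.94 to -0.17. Those of Ltf (5.66 to -0.61), S100a8 (3.36 to -0.24) and S100a9 (3.42 to -0.47) also changed sign. In the same library Mt1, a metallothionein, was at 949.8 CPM against 9.81 to 34.8 CPM in the other HFD libraries, and the summed neutrophil markers were at 203 CPM against 6.79 to 17.2 CPM in the other 8 libraries. The part of neutrophils or of stress in the results of this library was not tested. Among 15 antioxidant genes 5 rose and 3 fell, and 2 rose without replicate 4 or replicate 3 of old HFD, and 3 without old ND replicate 2, and voom called 2 as higher. Those that fell were Cat, catalase (-0.57), Txn2 (-0.27) and Sod2 (-0.25), which kept its call in 8 of 19 alternatives. In the clock list 1 of 8 rose, the light-responsive period gene Per1 (1.05 ± 0.30, edgeR adjusted p = 0.0127).

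**Figure D4:**
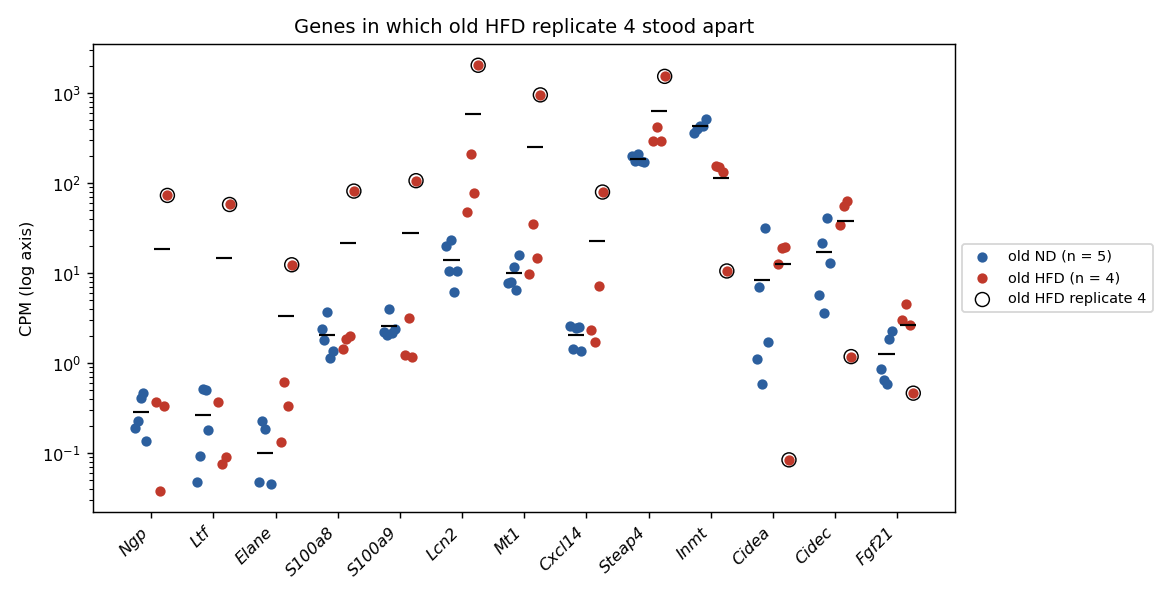
CPM on a log axis for 13 genes in which old HFD replicate 4 (ringed) differed most visibly from the other libraries. Points are libraries and black lines are group means. The granule genes Ngp, Ltf, Elane, S100a8 and S100a9 lie above 12 CPM in this library alone, and Inmt, Cidea, Cidec and Fgf21 are lowest in it.

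Ranked by fold change, the genes counted alike that were called, did not overlap and averaged 2 or more on the log2 CPM scale came from many pathways. The 10 highest were Lcn2, Tmem206, Ifi27l2b, Fads3, Ifi44, Hdc, Gnat1, Slc13a3, Oasl2 and Zbp1. Tmem206, a proton-activated chloride channel, measured 80.7, 82.7, 89.4 and 59.8 CPM in old HFD and 5.13, 2.90, 3.27, 3.36 and 3.73 CPM in old ND (4.41 ± 0.14, edgeR adjusted p = 1.76e-15). In young liver it differed by 4.96, with an opposite-strand gene within 5000 bp, and counting and diet cannot be told apart for it. Fads3, a desaturase-like gene with such a neighbour too, rose by 2.54 ± 0.23 in old and differed by 3.67 in young liver. Hdc, which makes histamine and has no such neighbour, measured 7.87, 14.9, 9.15 and 8.09 CPM against 3.02, 2.02, 2.13, 2.06 and 1.53 CPM (2.21 ± 0.23, edgeR adjusted p = 2.51e-07) and differed by 2.03 in young liver. Ifi27l2b, a relative of Ifi27, rose by 3.21 ± 0.31 (edgeR adjusted p = 2.49e-07), and the photoreceptor transducin Gnat1 by 2.19. Gnat1, Lcn2 and Slc13a3 also have an opposite-strand gene within 5000 bp.

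The 15 lowest were Serpina4-ps1, Adgrf1, Inmt, Snhg11, Igfbp2, 1810008I18Rik, Mir1981, Akr1c19, Dclk3, Reck, BC029214, Srd5a1, G6pc, Cryl1 and Abca8a. Inmt, an amine methyltransferase, measured 156, 152, 133 and 10.5 CPM in old HFD and 359, 399, 428, 426 and 508 CPM in old ND. It fell by 1.91 ± 0.47 (edgeR adjusted p = 0.00532), and by 1.51 without old HFD replicate 4. Srd5a1, the steroid reductase that clears glucocorticoids and activates testosterone, measured 53.0, 44.6, 51.7 and 24.0 CPM against 121, 118, 91.0, 109 and 89.4 CPM (-1.29 ± 0.19, edgeR adjusted p = 3.22e-05). Adgrf1, an adhesion receptor, measured 1.57, 3.09, 1.25 and 2.11 CPM against 18.7, 8.74, 17.3, 4.16 and 5.13 CPM (-2.44 ± 0.43, edgeR adjusted p = 0.000268). The noncoding RNA Snhg11 fell by 1.66, the transporter Abca8a by 1.24 and Reck, an inhibitor of matrix proteases, by 1.31. In young liver Srd5a1 differed by -1.24 and Adgrf1 by -2.13, while Abca8a differed by -0.35. Inmt, Srd5a1, BC029214 and Cryl1 have an opposite-strand gene within 5000 bp.

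The metabolic regulators fixed for naming were mostly not called. Ppara (0.12), Pparg (0.31), Gdf15 (0.58) and Fgf21, a hormone of fasting and lipid load (1.10 ± 0.46, edgeR adjusted p = 0.073), did not pass. Leaving out old HFD replicate 4, Fgf21 (1.46), Gdf15 (0.82) and the droplet coat gene Plin2 (0.64, not counted alike) passed at edgeR adjusted p = 0.0037, 0.029 and 0.0077. Cd36, a fatty acid transporter (0.62), and Glul, glutamine synthetase (0.61), rose but are not counted alike. They kept their calls in 11 and 15 of 17 alternatives. Cxcl10, an interferon-induced chemokine, did not pass (0.45 ± 0.39, edgeR adjusted p = 0.4).

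To ask whether age altered the difference between the diets, the interaction was tested over all 4 groups. It called 11 of 7487 genes counted alike (0.147%), named after their values were seen, and 873 (11.7%) had an unadjusted p under 0.05. The count was 0 with the replicate number as a block, 109 with DESeq2, 39 with voom and 5 to 25 with 1 old library left out, so no call held under every alternative. A constant factor between the tables cancels in this test, but added reads whose share differs between the ages would not, and this was not tested. The diet difference was higher in old than in young liver for Rhbg, Lad1, Grk5, Ablim3, Ifi27 and Dtx4, and lower for Pcdh17, Hhex, Inhba, Serpina6 and Rnf145.

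Hhex, a homeobox factor of liver and endothelium, measured 25.9, 34.7, 30.0 and 38.7 CPM in old HFD and 45.5, 67.9, 61.6, 64.9 and 70.8 CPM in old ND, against 55.0 to 89.4 CPM in young HFD and 62.8 to 74.4 CPM in young ND. All old HFD libraries lay below those of the other 3 groups, and the interaction was -1.09 ± 0.20 (edgeR adjusted p = 0.0413). Inhba, the activin A subunit, showed another pattern, with 10.6 to 14.8 CPM in old HFD, 19.7 to 25.4 CPM in old ND and 9.79 to 16.1 CPM over both young groups, so that all old ND libraries lay above the others (-0.98 ± 0.19, edgeR adjusted p = 0.0426). Lad1, a basement membrane protein, was higher on HFD in old liver (1.17) and lower on HFD in young liver (-0.83). Serpina6, the carrier of corticosteroids in blood, was higher on HFD in young liver (0.63) and did not pass in old liver (-0.32). Nnt, whose coding sequence differs between C57BL6 substrains, measured 46.7 to 64.3 CPM in the 9 old libraries and 163 to 204 CPM in the young ones. It did not differ by diet in old liver (0.05 ± 0.09), whereas age and the source of the mice cannot be told apart in the interaction.

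**Figure D5:**
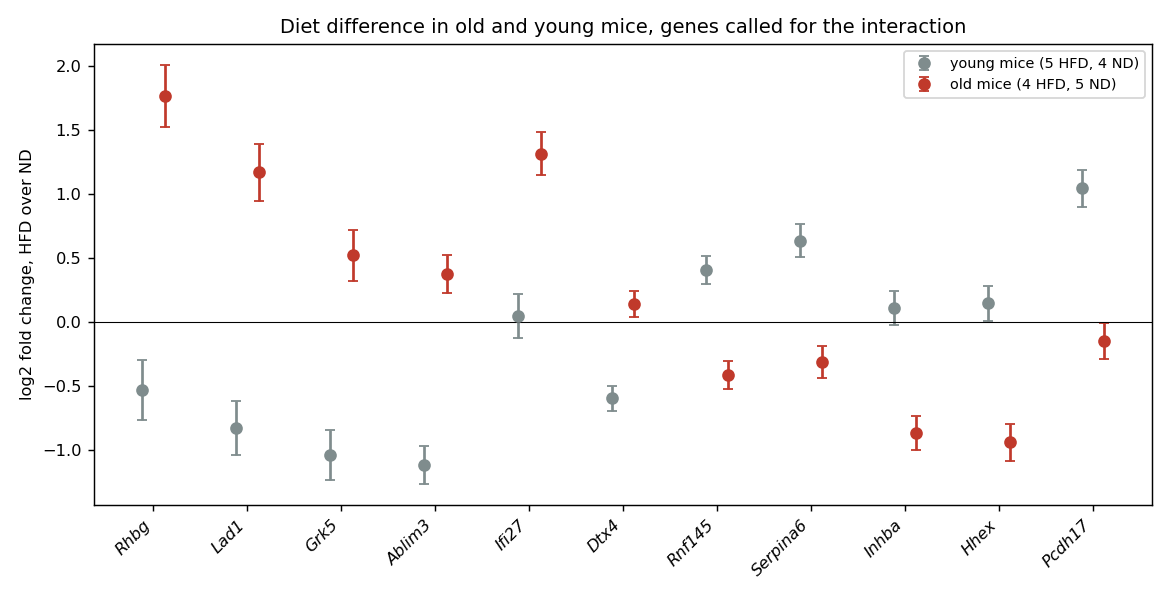
Log2 fold change of HFD over ND with its standard error in young (grey) and old (red) liver for the 11 genes counted alike that were called for the interaction. Points above 0 are higher on HFD. Rhbg, Lad1, Grk5, Ablim3 and Dtx4 lie above 0 in old liver and below 0 in young liver, and Rnf145, Serpina6, Inhba, Hhex and Pcdh17 the other way round.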

How the data were processed

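The poly(A) libraries were aligned by the authors with STAR to mm10 (GRCm38). The deposited values are raw counts per gene, in 1 table for HFD and 1 for ND. Per the file headers HOMER counted exons of 1 RefSeq transcript per gene, with a strand option for ND only, while the written methods name another counter. Both tables list 24537 symbols, of which 1168 have different transcripts and 13422 were counted alike (31-base words, GENCODE M21). All 18 libraries entered 1 edgeR 4.0.16 quasi-likelihood model (R 4.3.3, TMM, filterByExpr, robust, 4 groups, no covariate), tested two-sided and adjusted by Benjamini-Hochberg over 14275 genes, and checked on simulated data. Log2 CPM used a prior count of 2. Standard errors follow ±. Named genes were the 3 highest and 3 lowest called per list (mean log2 CPM of at least 0), the 10 highest and 15 lowest counted alike, and a fixed set. Others, such as Oas3, Rsad2, Irgm1, Acacb, Ngp, Nnt, Fads2 and further list members, were named after their values were seen. Members and lists were chosen with earlier results of these data known. Alternatives were DESeq2 1.42.0, limma 3.58.1 voom, other scalings and filters, subsets of genes or libraries, the replicate block and leaving out each old library. With Python 3.11.15, promoters were matched by symbol to RefSeq, and 5714 of the 7487 tested genes counted alike had one. Some genes of the lists are not reported here by name.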

Additional observations from a re-analysis of the deposited data

Results flagged for a closer look

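Among 278 groups tested over named genes, 16 held a library far from the others of its group, where chance flags about 1 in 20. Old HFD replicate 4 was lowest for Inmt (10.5 CPM, others 133 to 156), Cidea (0.0843 CPM, others 12.5 to 19.3), Cidec (1.18 CPM, others 34.4 to 62.3), Reck (1.85 CPM, others 4.04 to 4.40) and Acad8 (42.1 CPM, others 56.9 to 58.9). It was highest for S100a8 (81.2 CPM, others 1.43 to 1.98) and Fabp4, a fatty acid binding protein (57.7 CPM, others 12.5 to 15.6).

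Old ND replicate 5 was lowest for Cyp7a1 (38.2 CPM, others 129 to 190.5), Zbp1 (4.68 CPM, others 11.1 to 14.8), Slc13a3 (12.7 CPM, others 17.9 to 19.6) and 1810008I18Rik (48.1 CPM, others 102 to 130.5), and highest for Ttr (7483 CPM, others 4021 to 4665) and Apoa2 (6593 CPM, others 3719 to 4251). Old ND replicate 3 was lowest for Dtx4 (17.0 CPM) and highest for S100a9 (3.97 CPM), and old ND replicate 2 was lowest for Vsig4 (40.8 CPM).

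The diet difference itself differed between old and young liver, by the interaction test, for 11 genes counted alike. The log2 difference, old minus young, was 2.30 for Rhbg, 2.00 for Lad1, 1.56 for Grk5, 1.49 for Ablim3, 1.27 for Ifi27 and 0.74 for Dtx4. It was -1.19 for Pcdh17, -1.09 for Hhex, -0.98 for Inhba, -0.95 for Serpina6 and -0.82 for Rnf145. Their edgeR adjusted p lay between 0.011 and 0.045. With the replicate number as a block 0 genes were called by edgeR (781 at an unadjusted p under 0.05), and with DESeq2 109 were.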

How the results depend on the processing

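Of 3030 alternative fits of named genes, 2737 kept direction and call, 258 lost the call, 30 gained it and 5 changed sign, namely Ltf, Ngp, S100a8 and S100a9 without old HFD replicate 4, and Ngp (-0.22) with voom. With 1 old library left out these log2 fold changes ranged from -0.61 to 6.07 for Ltf, -0.17 to 6.36 for Ngp, -0.24 to 3.74 for S100a8 and -0.47 to 3.82 for S100a9. The fit to the 9 old libraries alone lost 41 calls of named genes and called 2671 genes, 836 of those counted alike (312 higher, 524 lower). Scaled and tested among themselves, genes counted alike gave 1510 calls (669 lower), those without an opposite-strand gene within 5000 bp 713 (395 higher, 318 lower), and those sharing no 31-base word, an alternative chosen after seeing the data, 989 (509 higher, 480 lower). These subsets test fewer genes. Voom called 463 as higher and upper-quartile scaling 1630 as lower. The interaction count of 11 became 109 with DESeq2, 39 with voom, 7 without shared words and 0 with the replicate number as a block (edgeR, 781 at an unadjusted p under 0.05). With 1 old library left out, calls ranged from 3784 to 4770 over all genes, 1411 to 1999 counted alike (567 to 882 higher, 781 to 1121 lower) and 5 to 25 for the interaction, which was 5 without old HFD replicate 1 or old ND replicate 2, 6 without old ND replicate 4, 21 without old HFD replicate 4 and 25 without old ND replicate 5. The replicate block left 1567 genes counted alike called. Same-numbered samples correlated at -0.158 to 0.27 and 2 of 4 numbers correlated best with their own. So few numbers cannot tell whether they pair samples. The cause of these shifts was not tested. Low genes such as Ngp, with 1 count in some libraries, are limited by depth.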

Other observations

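Ass1 went against the other urea cycle genes named above. It makes argininosuccinate, the substrate of Asl, and measured 2221, 1488, 1789 and 1684 CPM in old HFD and 512, 571, 496, 553 and 549 CPM in old ND, a log2 fold change of 1.74 ± 0.12 (edgeR adjusted p = 6.67e-10), where Cps1, Otc and Asl fell. In young liver it differed by 1.90. Its transcript shares 61.52% of its 31-base words with other loci, and diet and the handling of such reads cannot be told apart for it.

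Old ND replicate 5 had the lowest level of the 5 ND libraries for Fasn, Thrsp, Pnpla3, Acacb and Scd1 and the highest of all 9 old libraries for Pck1 (3474 CPM), Ttr and Alb. Without it, 10 of 18 lipogenic genes fell, against 8 with it, and 22 of 32 interferon-stimulated genes rose, against 25.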
